A study of Mus musculus with 6 samples.

Results

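Double-strand break repair and checkpoint genes were described in BCR-ABL1-driven mouse acute lymphoblastic leukaemia that lacked or carried activation-induced cytidine deaminase (AID). The set was a fixed list of 33 genes chosen by function: the end-joining machinery, the homologous recombination and crosslink repair proteins, and the proteins that sense breaks and signal to the cell cycle. A probe set annotated to exactly 1 member symbol was found for 30 of them, out of 18193 genes measured in the same way. Xrcc2, Dclre1c and Rbbp8 had no such probe set and were not analysed here. The 30 members were read by 66 probe sets in all, and where a member had several, the one with the highest mean on the 6 arrays was used.

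The question of the series was which genes differ in expression when AID is missing. The groups were 3 arrays of AID-/- leukaemia cells and 3 arrays of AID+/+ leukaemia cells, both labelled Balb/c and both driven, per the title of the series, by BCR-ABL1, a constitutively active fusion kinase. The titles call the arrays biological replicates. The age of the animals, and whether each array stands for its own animal, are not given in the sources used here. The p-values then cover only the spread between these arrays, which may be technical.

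A double-strand break is repaired along 2 main routes. In non-homologous end joining the Ku heterodimer binds the broken ends, the kinase DNA-PKcs holds and activates the complex, the nuclease Artemis trims the ends, and ligase IV with XRCC4 and XLF seals them. In homologous recombination the ends are resected, BRCA1 and BRCA2 take part in the steps that follow, and an intact copy serves as template, mainly in S and G2 phase. The kinases ATM and ATR, and their effectors CHK2 and CHK1, stop the cell cycle while repair goes on. B-lineage cells make breaks as part of their normal development: the RAG recombinase cuts immunoglobulin genes during V(D)J recombination, and lesions left by AID are turned into breaks during class switching. Both are joined mainly by the end-joining route.

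Promoter windows are shown for 2 members that were higher and 2 that were lower in AID-/- leukaemia in the results below, since S phase genes are often driven through E2F sites and the recombination genes among the members include S phase genes. Windows came from RefSeq (GRCm38.p6), with 250 bases before and 50 after an annotated start, and are printed 5′ to 3′ on the strand of the gene. Capitals mark matches on either strand to an E2F word (TTTCCCGC, TTTCGCGC, TTTGCCGC or TTTGGCGC), to a CCAAT box (CCAAT) or to a cell cycle homology element (TTTGAA).
Xrcc6, chr15:82016119-82016418, plus strand: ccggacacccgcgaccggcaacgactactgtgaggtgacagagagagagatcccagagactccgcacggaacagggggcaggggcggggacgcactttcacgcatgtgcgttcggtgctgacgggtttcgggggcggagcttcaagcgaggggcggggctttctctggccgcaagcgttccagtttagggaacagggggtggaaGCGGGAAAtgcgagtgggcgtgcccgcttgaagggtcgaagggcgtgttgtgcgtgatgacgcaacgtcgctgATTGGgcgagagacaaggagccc
Rad51c, chr11:87404457-87404756, minus strand: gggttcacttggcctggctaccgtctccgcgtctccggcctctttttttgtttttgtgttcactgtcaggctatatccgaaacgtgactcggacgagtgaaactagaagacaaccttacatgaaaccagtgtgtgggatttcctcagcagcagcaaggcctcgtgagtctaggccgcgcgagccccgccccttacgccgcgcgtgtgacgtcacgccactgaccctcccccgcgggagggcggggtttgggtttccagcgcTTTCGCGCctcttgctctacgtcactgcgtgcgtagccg
Brca1, chr11:101551906-101552205, minus strand: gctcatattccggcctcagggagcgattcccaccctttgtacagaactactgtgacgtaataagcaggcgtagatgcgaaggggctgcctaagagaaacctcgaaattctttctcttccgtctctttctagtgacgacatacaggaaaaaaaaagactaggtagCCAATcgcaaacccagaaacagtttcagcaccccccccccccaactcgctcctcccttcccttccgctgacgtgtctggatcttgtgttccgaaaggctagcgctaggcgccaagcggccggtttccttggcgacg
Atr, chr9:95857347-95857646, plus strand: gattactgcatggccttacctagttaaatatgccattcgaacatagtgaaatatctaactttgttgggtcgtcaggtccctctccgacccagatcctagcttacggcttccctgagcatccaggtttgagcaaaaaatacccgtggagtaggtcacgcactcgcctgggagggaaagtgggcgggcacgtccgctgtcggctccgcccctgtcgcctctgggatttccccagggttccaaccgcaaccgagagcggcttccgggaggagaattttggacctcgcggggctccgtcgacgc

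The table held windows for 24 of the 30 members, 28 windows in all. An E2F word lay in 7 of these windows (25.0%), against 3.20% of 18009 windows of genes on the array and 2.26% of all 32851 windows. The windows belonged to Bard1, Brca2, Chek2, Mdc1, Xrcc6 and both annotated starts of Rad51c. In Xrcc6 the match began 46 bases before the start, and in the printed Rad51c window 12 bases after it. The windows of Atr, Brca1 and Rad52, all lower in AID-/- leukaemia, held no E2F word, and the table had no window for H2ax, the remaining lower member. Bard1, Brca2 and Chek2, which held an E2F word, differed by -0.16, -0.29 and -0.27, and Mdc1 by 0.16, none of them past the threshold. Whether E2F words go with the direction of the difference was not tested. A CCAAT box lay in 14 of the 28 member windows (50.0%, against 37.4% of the windows of genes on the array) and a cell cycle homology element in 2 (7.14%, against 13.4%). Windows of nearby starts overlap for Rad54l and Rad18, and the same CCAAT box of Rad54l is counted in both of its windows. Matches to different motifs overlapped at 1 place among the member windows. Median GC content was 59.9% in the member windows and 58.3% in those of genes on the array. A match is a run of letters and not a measured binding site.

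Values below are RMA expression values on the log2 scale, between 2.15 and 14.33 over all arrays, so a difference of 1 is a 2-fold change. The size of a value depends on its probes, and levels are therefore compared between groups and not between genes. Differences are AID-/- minus AID+/+ with a moderated standard error (SE), and a member passed at a Benjamini-Hochberg adjusted p under 0.05 from limma over all 18193 genes. In bulk cells, fewer cells of a type and less RNA per cell cannot be told apart.

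Xist was at 4.35 to 6.02 in AID-/- and 11.93 to 12.18 in AID+/+ leukaemia, and the Y-linked gene Kdm5d at 7.62 to 7.74 in AID-/- and 2.42 to 2.68 in AID+/+ leukaemia. Eif2s3y, another Y-linked gene, was at 8.85, 3.67 and 2.71 in AID-/- leukaemia, against 2.51 to 2.59 in AID+/+ leukaemia, so that AID-/- replicate 1 stood apart from the other AID-/- arrays at this gene, which did not pass. In all comparisons given here, sex and genotype cannot be told apart. Pearson's r across probe sets was 0.991 to 0.996 between arrays of 1 group and 0.972 to 0.977 between groups. Of 9 measured B-lineage markers, 7 did not pass and 2, Rag1 and Blnk, were higher. Their summed linear values were 38196 to 41369 in AID-/- and 32059 to 35429 in AID+/+ leukaemia. The summed values of 6 myeloid markers were 158 to 192 in AID-/- and 138 to 173 in AID+/+ leukaemia, and of these Lyz2 passed, higher by 0.76 (SE 0.21). At an unadjusted p under 0.05, 2 of these 6 markers were higher, Lyz2 and Itgam, and Csf1r was lower, and 4 of the 6 had a difference below 0. Over all genes, 15.3% were higher and 15.3% lower at that p. Of the 6 fits with 1 array left out, Lyz2 passed in 1, that without AID-/- replicate 3, and its adjusted p reached 0.135. The part of these markers in the results below was not tested. Sums of 5 T cell markers were 152 to 167 in AID-/- and 162 to 172 in AID+/+ leukaemia, those of 2 erythroid markers were 27 to 32 in both groups, and those of 2 NK cell markers were 26 to 28 in AID-/- and 31 to 40 in AID+/+ leukaemia. None of these 9 T cell, erythroid and NK cell markers passed limma, and 1 of them had an unadjusted p under 0.05.

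Most measured break repair and checkpoint genes did not pass, and the called share was near that of all genes. Of the 30 measured members, Xrcc6 and Rad51c were higher in AID-/- leukaemia, Rad52, Atr, H2ax and Brca1 were lower, and 24 did not pass. This is 20.0% of the members, against 18.5% of all genes called in either direction. In each direction the shares were 6.67% of members against 10.1% of all genes for higher calls, and 13.3% against 8.42% for lower calls. The higher calls numbered 2 without AID-/- replicate 1 and 1 without any other single array. The lower calls numbered 3 without AID-/- replicate 2 or 3 or AID+/+ replicate 2, 2 without AID-/- replicate 1 or AID+/+ replicate 3, and 1, Atr, without AID+/+ replicate 1. The sizes were modest: no member differed by 1 log2 unit, which 5.33% of all genes did, and 3 members, Xrcc6, Rad52 and Atr, differed by at least 0.5, which 14.3% of all genes did. The median difference of the members was -0.16, against -0.03 over all genes, and 19 of 30 members (63.3%) had a difference below 0, against 56.1% of all genes.

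**Figure D1:**
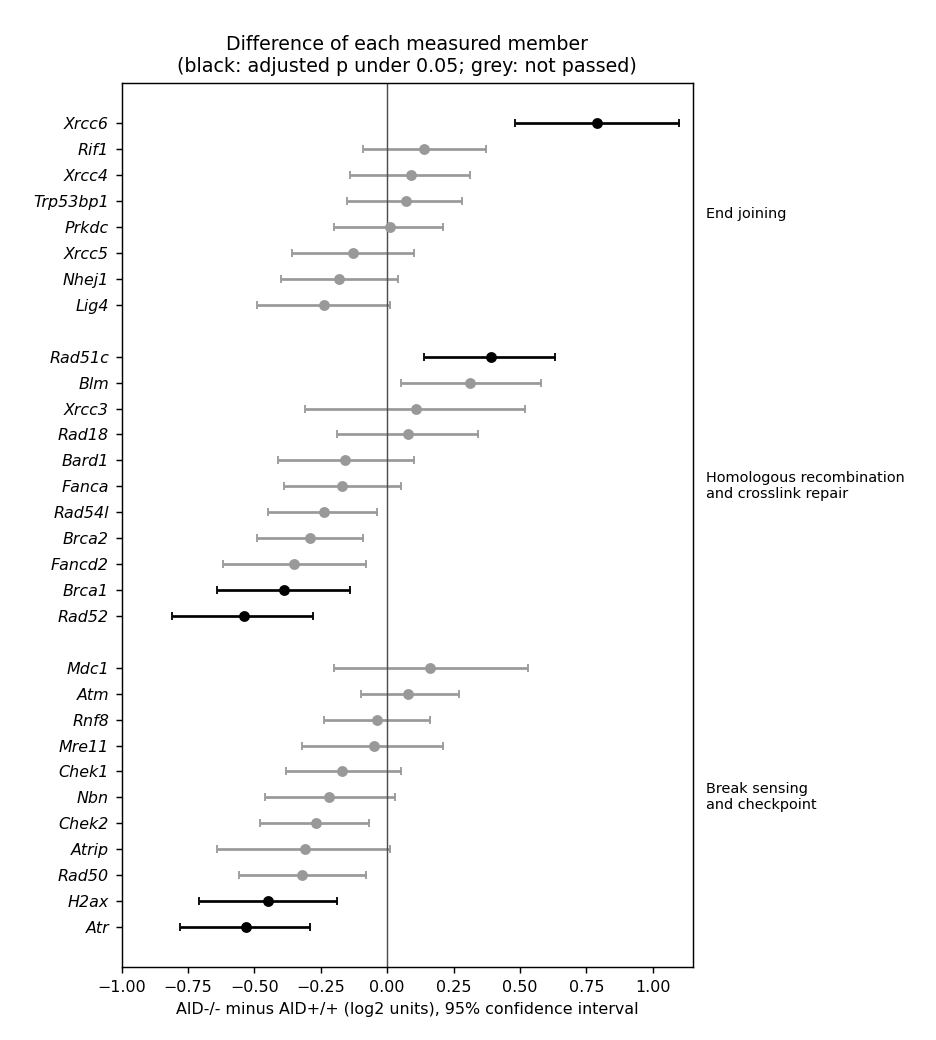
Difference of each of the 30 measured members, AID-/- minus AID+/+, in log2 units on the horizontal axis, with its 95% confidence interval from limma; members are grouped by role, and black points passed at an adjusted p under 0.05. Xrcc6 stands apart at 0.79, and every other member lies between -0.54 and 0.39.

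The arrays of the groups did not overlap for 15 of the 30 members (50.0%), against 36.5% of all genes. In 12 of them (40.0%) every AID-/- array lay below every AID+/+ array, against 19.0% of all genes, and in 3 (10.0%) every AID-/- array lay above, against 17.5% of all genes. The 12 were Brca1, Brca2, Bard1, Rad52, Rad54l, Fanca, Fancd2, Lig4, Atr, Chek2, Rad50 and H2ax, and the 3 were Xrcc6, Rad51c and Blm. Replicate spread was similar in both groups, with a median SD over members of 0.11 in AID-/- and 0.11 in AID+/+ leukaemia.

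**Figure D2:**
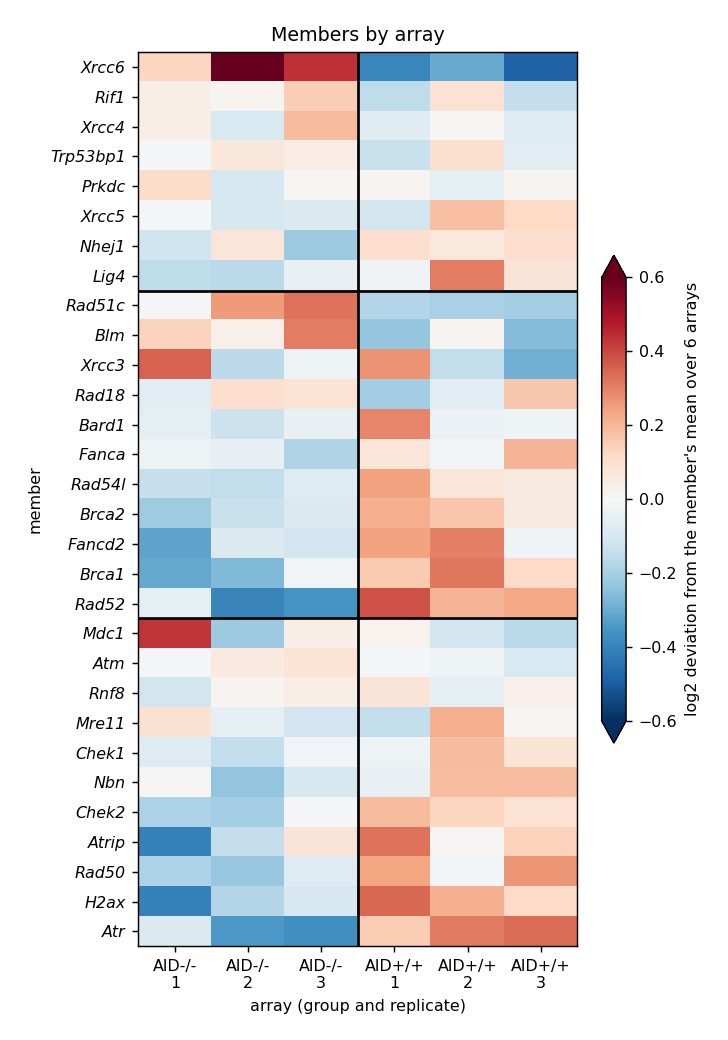
Each row is a member and each column an array, with AID-/- arrays on the left; colour is the log2 deviation from the member's mean over the 6 arrays, and black lines part the roles (end joining at the top, homologous recombination and crosslink repair in the middle, break sensing and checkpoint at the bottom). The rows of Rad52, H2ax and Atr are blue in the AID-/- arrays and red in the AID+/+ arrays, while Xrcc6 shows the opposite pattern.

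Among the end-joining genes, Xrcc6 was higher in AID-/- leukaemia and the other 7 measured members did not pass. The called share was 12.5%, against 18.5% of all genes. Xrcc6 encodes Ku70, a subunit of the Ku heterodimer that binds broken ends. Its values were 9.90, 10.39 and 10.21 in AID-/- leukaemia, against 9.38, 9.47 and 9.29 in AID+/+ leukaemia. The lowest AID-/- array lay above the highest AID+/+ array. The difference was 0.79 (SE 0.13), or 1.73-fold, with an adjusted p of 0.00533, and it passed in all 6 fits that left out 1 array. The other probe set of Xrcc6 read 4.40 in AID-/- and 4.20 in AID+/+ leukaemia, below the median probe set at 4.89, and its difference of 0.20 (SE 0.17) did not pass.

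The gene of the other Ku subunit did not pass. Xrcc5, which encodes Ku80, was at 8.42 ± 0.05 in AID-/- leukaemia, against 8.55 ± 0.16 in AID+/+ leukaemia (SD of 3 arrays). The difference was -0.13, with a 95% confidence interval of -0.36 to 0.10. That interval and the one of Xrcc6, 0.48 to 1.10, share no value. The difference between the 2 subunits was not tested.

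The kinase and ligase genes did not pass. Prkdc, which encodes DNA-PKcs, was at 7.62 ± 0.10 in AID-/- leukaemia, against 7.61 ± 0.04 in AID+/+ leukaemia (SD of 3 arrays), with an interval of -0.20 to 0.21. Lig4, the ligase gene, had 7.76, 7.75 and 7.87 in AID-/- leukaemia, against 7.89, 8.22 and 7.99 in AID+/+ leukaemia. The groups did not overlap, but the difference of -0.24 (SE 0.11) did not pass. Its scaffold Xrcc4 differed by 0.09 (SE 0.10), and Nhej1, which encodes XLF, by -0.18 (SE 0.10). Nhej1 was the member with both group means below the median probe set, at 4.65 in AID-/- and 4.83 in AID+/+ leukaemia. The size of its difference is therefore approximate.

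The factors that protect ends from resection did not pass. Rif1, which acts with 53BP1 to hold back resection, had 10.18, 10.16 and 10.29 in AID-/- leukaemia, against 9.99, 10.23 and 10.00 in AID+/+ leukaemia. The groups overlapped, with a difference of 0.14 (SE 0.10), and all 4 of its probe sets had a difference above 0. Trp53bp1, the gene of 53BP1, differed by 0.07 (SE 0.09), and its 6 probe sets lay on both sides of 0.

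In the wider end-joining list, Polm and Mad2l2 fell and 10 of 12 measured genes did not pass. The called share was 16.7%, against 18.5% of all genes called in either direction and 8.42% called lower. Polm encodes DNA polymerase mu, which fills gaps at joined ends. It was at 7.37, 6.94 and 7.77 in AID-/- leukaemia, against 8.52, 8.40 and 8.25 in AID+/+ leukaemia, and fell by 1.03 (SE 0.19, adjusted p = 0.00874). Mad2l2, which encodes the shieldin subunit REV7, fell by 0.58 (SE 0.09). No gene of this list was higher by limma's adjusted or unadjusted p under 0.05, against 10.1% and 15.3% of all genes. The median difference was -0.09.

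Homologous recombination and crosslink repair genes held 1 higher member, Rad51c, and 2 lower members, Rad52 and Brca1, while 8 of 11 did not pass. The called share was 27.3%, against 18.5% of all genes. Higher calls were 9.09%, against 10.1% of all genes, and lower calls 18.2%, against 8.42%. The median difference of the 11 was -0.17. In 7 of the 11 every AID-/- array lay below every AID+/+ array (63.6%, against 19.0% of all genes). In 2 of the 11 every AID-/- array lay above (18.2%, against 17.5% of all genes).

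Rad52 encodes a single-strand annealing protein. Its values were 7.14, 6.80 and 6.84 in AID-/- leukaemia, against 7.58, 7.40 and 7.43 in AID+/+ leukaemia. The highest AID-/- array, replicate 1, stayed below the lowest AID+/+ array. Rad52 fell by 0.54 (SE 0.11, adjusted p = 0.0136). Its other probe set differed by -0.51 (SE 0.20) with overlapping groups and did not pass. Rad52 no longer passed when AID-/- replicate 3 or AID+/+ replicate 1 was left out, with adjusted p of 0.0508 and 0.0518.

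Brca1, the ubiquitin ligase gene that favours resection of the ends, was at 8.87, 8.91 and 9.16 in AID-/- leukaemia, against 9.33, 9.49 and 9.29 in AID+/+ leukaemia. It fell by 0.39 (SE 0.11), just past the threshold at an adjusted p of 0.0406. All 4 of its probe sets had groups that did not overlap and differences of -0.34 to -0.43, and 2 of them passed over all probe sets. Of the 6 fits with 1 array left out, Brca1 passed in 1, that without AID-/- replicate 3, and the adjusted p reached 0.128. It also missed the threshold with each array centred on its median (adjusted p = 0.0510), with array weights (0.0562), with the replicate number as a block (0.0898) and without moderation (0.114). Bard1, which encodes the obligate partner of BRCA1, differed by -0.16 (SE 0.11) and did not pass.

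**Figure D3:**
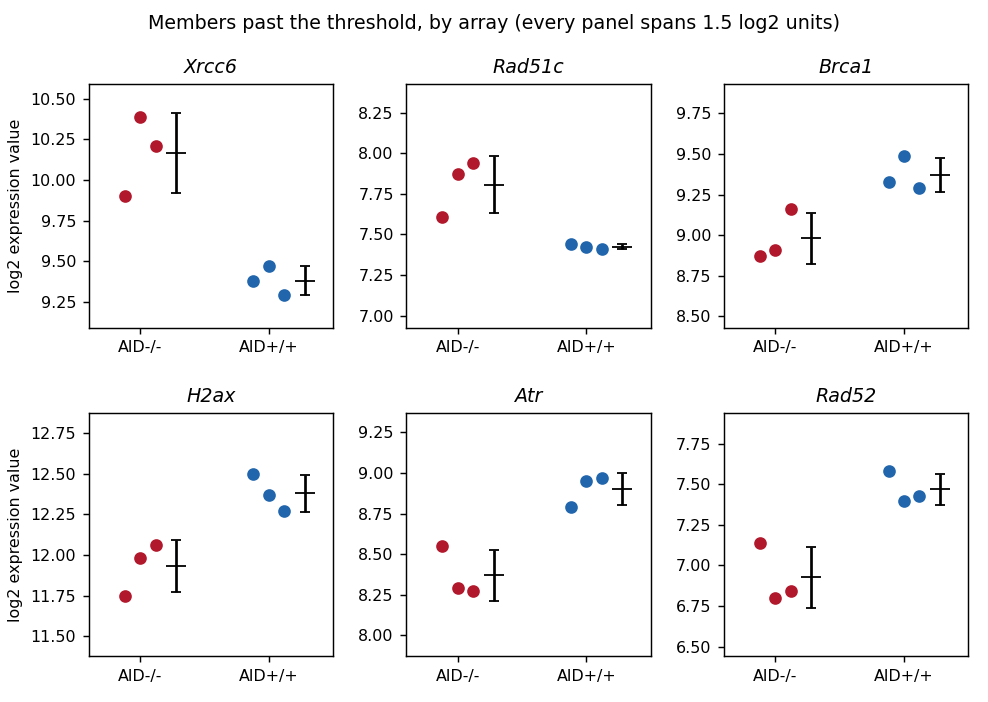
Values of the 6 members past the threshold on each array, in log2 units, with AID-/- arrays in red on the left and AID+/+ arrays in blue on the right of every panel; black bars give the mean and SD of 3 arrays. Xrcc6 and Rad51c lie higher in AID-/- leukaemia and Brca1, H2ax, Atr and Rad52 lower, with no overlap between the groups.

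Rad51c was the 1 recombination member that rose. It encodes a protein that acts in recombination and in the resolution of its intermediates. Its values were 7.61, 7.87 and 7.94 in AID-/- leukaemia, against 7.44, 7.42 and 7.41 in AID+/+ leukaemia. The AID+/+ arrays were tight and the AID-/- arrays lay above them by unequal amounts, with replicate 1 the closest. The difference was 0.39 (SE 0.11, adjusted p = 0.0392), and the second probe set gave 0.37 (SE 0.12) with groups that did not overlap. The call remained in 1 of 6 fits that left out 1 array, the one without AID-/- replicate 1, and the adjusted p reached 0.121. Rad51c also missed the threshold with the replicate number as a block (0.0776) and without moderation (0.107).

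Brca2, a tumour suppressor gene needed for homologous recombination, was at 8.33, 8.41 and 8.46 in AID-/- leukaemia, against 8.76, 8.71 and 8.60 in AID+/+ leukaemia. The groups did not overlap, and the difference of -0.29 (SE 0.09) just missed the threshold (adjusted p = 0.0574). Rad54l, which encodes a motor protein of homologous recombination, had 9.60, 9.59 and 9.66 in AID-/- leukaemia, against 9.98, 9.81 and 9.79 in AID+/+ leukaemia. It differed by -0.24 (SE 0.09) with no overlap and an adjusted p of 0.0989, and all 4 of its probe sets had a difference below 0. Xrcc3, another homologous recombination gene, differed by 0.11 (SE 0.18), and its arrays overlapped. The dimmer probe set of Xrcc3 was higher by 0.54 (SE 0.14) and passed over all probe sets.

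Crosslink repair, helicase and damage tolerance genes did not pass. Fancd2, whose product is monoubiquitinated at stalled forks, was at 7.94 ± 0.13 in AID-/- leukaemia, against 8.29 ± 0.18 in AID+/+ leukaemia (SD of 3 arrays). It differed by -0.35 (SE 0.12, adjusted p = 0.0811). Its second probe set passed over all probe sets with -0.41 (SE 0.10). Fanca, a subunit of the Fanconi core complex, differed by -0.17 (SE 0.10). Blm, the helicase gene mutated in Bloom syndrome, was the member with the next largest positive difference, 0.31 (SE 0.11, adjusted p = 0.101), and its groups did not overlap. Rad18, an E3 ligase gene of damage tolerance, differed by 0.08 (SE 0.11). Of its 4 probe sets, 1 that was not used fell by 0.69 (SE 0.11) and passed over all probe sets, and the others did not pass.

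In the wider recombination and crosslink list, 1 of 29 measured genes rose, 5 fell and 23 did not pass, with a median difference of 0.00. The called share was 20.7%, against 18.5% of all genes. Higher calls were 3.45%, against 10.1% of all genes, and lower calls 17.2%, against 8.42%. Rad51b, a homologous recombination gene, was at 4.66, 4.69 and 4.32 in AID-/- leukaemia, against 5.90, 5.89 and 5.99 in AID+/+ leukaemia, and fell by 1.37 (SE 0.12). The AID-/- values lay below the median probe set, so the size is approximate. Both probe sets of Rad51b were lower, and 1 of the 2 was called. Fancf, an adaptor of the Fanconi core complex, fell by 0.84 (SE 0.11), with all 3 of its probe sets called, and the motor protein gene Rad54b fell by 0.52 (SE 0.10). Rpa3, the smallest subunit of the single-strand binding protein RPA, was higher by 0.45 (SE 0.10). Rpa3 no longer passed when AID-/- replicate 3, AID+/+ replicate 1 or AID+/+ replicate 3 was omitted, with an adjusted p of at most 0.0541. The remaining lower genes, Fance and Ercc1, fell by 0.58 (SE 0.15) and 0.38 (SE 0.10). With 1 array left out, Fance passed in 2 of 6 fits, those without AID+/+ replicate 1 or 2, and Ercc1 in 1, that without AID-/- replicate 3, with adjusted p up to 0.0764 and 0.115.

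S phase and mitosis genes are given here because many recombination genes are made in S and G2 phase. Of 24 measured, 0 were higher by limma's adjusted p, while Cdt1 and Bub1 fell, and the median difference was 0.05. The called share was 8.33%, against 18.5% of all genes. At an unadjusted p under 0.05, 3 were higher and 3 lower, against 15.3% of all genes in each direction. The summed linear values of these 24 genes were 66363 to 70841 in AID-/- and 66296 to 71990 in AID+/+ leukaemia. Mki67, the proliferation marker gene, was at 11.78 in both groups. Cdt1, the replication licensing gene, fell by 0.75 (SE 0.09) and Bub1, a spindle checkpoint kinase gene, by 0.32 (SE 0.09). The call on Bub1 was lost whichever array was omitted (adjusted p 0.0518 to 0.139). Its 2 probe sets had differences on both sides of 0, and neither was called over all probe sets.

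Break sensing and checkpoint genes included no higher member by limma's adjusted or unadjusted p and 2 lower members, Atr and H2ax, of 11 measured. The called share was 18.2%, against 18.5% of all genes called in either direction. Lower calls were 18.2%, against 8.42% of all genes, and higher calls 0.0%, against 10.1%. At an unadjusted p under 0.05, 15.3% of all genes were higher. The median difference was -0.22, against -0.03 over all genes. A difference below 0 was found in 9 of the 11 (81.8%), against 56.1% of all genes.

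Atr encodes the kinase that answers single-stranded DNA at stalled forks and resected ends. Its values were 8.55, 8.29 and 8.27 in AID-/- leukaemia, against 8.79, 8.95 and 8.97 in AID+/+ leukaemia. The groups did not overlap, with AID-/- replicate 1 and AID+/+ replicate 1 the closest pair. Atr fell by 0.53 (SE 0.11, adjusted p = 0.0108), and its other probe sets fell by 0.56 (SE 0.15) and 0.72 (SE 0.20), so that all 3 were called over all probe sets. Atr no longer passed without AID+/+ replicate 3, with an adjusted p of 0.0512.

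Atrip and Chek1, whose products act with ATR, did not pass. Atrip, which encodes the partner that recruits ATR to RPA-coated DNA, was at 6.07 ± 0.24 in AID-/- leukaemia, against 6.38 ± 0.16 in AID+/+ leukaemia (SD of 3 arrays), and its difference of -0.31 (SE 0.14) did not pass. Chek1, the gene of the effector kinase CHK1, differed by -0.17 (SE 0.09) with overlapping groups. In the wider checkpoint list, Topbp1, the gene of an ATR activator, was at 10.88, 10.76 and 10.89 in AID-/- leukaemia, against 11.45, 11.49 and 11.51 in AID+/+ leukaemia. Topbp1 fell by 0.65 (SE 0.08, adjusted p = 0.00154). Brcc3, the deubiquitinase gene of the BRCA1-A complex, rose by 0.61 (SE 0.10), with 1 of 5 probe sets called. Brcc3 is on the X chromosome, and sex and genotype cannot be told apart. The second probe set of Topbp1 was not called. The remaining 20 of 22 measured genes of that list did not pass, and its median difference was -0.07. The called share of the list was 9.09%, against 18.5% of all genes.

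H2ax, the histone variant gene whose product is phosphorylated around breaks, was at 11.75, 11.98 and 12.06 in AID-/- leukaemia, against 12.50, 12.37 and 12.27 in AID+/+ leukaemia. The groups did not overlap, and the closest arrays were both replicate 3. H2ax fell by 0.45 (SE 0.11, adjusted p = 0.0261) at its 1 probe set. The call was lost without AID-/- replicate 1 and without AID+/+ replicate 1 or 2, with adjusted p of 0.0580, 0.0849 and 0.0738. H2ax also missed the threshold with the replicate number as a block (0.0750) and without moderation (0.0970).

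Neither Atm nor Chek2 passed. Atm, the kinase gene of the double-strand break response, was at 9.04, 9.11 and 9.13 in AID-/- leukaemia, against 9.04, 9.02 and 8.96 in AID+/+ leukaemia. Its difference of 0.08 had a 95% confidence interval of -0.10 to 0.27. Chek2, which encodes the effector kinase CHK2, had 7.78, 7.77 and 7.96 in AID-/- leukaemia, against 8.16, 8.10 and 8.06 in AID+/+ leukaemia. Its groups did not overlap, and the difference of -0.27 (SE 0.09) had an adjusted p of 0.0743.

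The MRE11-RAD50-NBS1 complex, which tethers ends and activates ATM, had no subunit that passed. Rad50 was at 9.00 ± 0.07 in AID-/- leukaemia, against 9.33 ± 0.15 in AID+/+ leukaemia (SD of 3 arrays). The groups did not overlap, and Rad50 differed by -0.32 (SE 0.10, adjusted p = 0.0674). It passed without AID+/+ replicate 2 (adjusted p = 0.0384) and with its 2 probe sets averaged (adjusted p = 0.0125). The second of these probe sets was dim, at 2.91 in AID-/- and 3.29 in AID+/+ leukaemia, below the median probe set. Mre11, the nuclease gene, differed by -0.05 (SE 0.11) and Nbn, the gene of NBS1, by -0.22 (SE 0.11), both with overlapping groups. Of the chromatin factors that follow H2AX phosphorylation, Mdc1 differed by 0.16 (SE 0.16) with 8.14 in AID-/- replicate 1 against 7.49 to 7.75 in the other AID-/- arrays, and the ubiquitin ligase gene Rnf8 differed by -0.04 (SE 0.09).

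The 24 members that did not pass are not shown to be equal between the groups. All 24 had a 95% confidence interval of the difference that lay between -1 and 1, so a 2-fold difference lay outside each of those intervals.

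**Figure D4:**
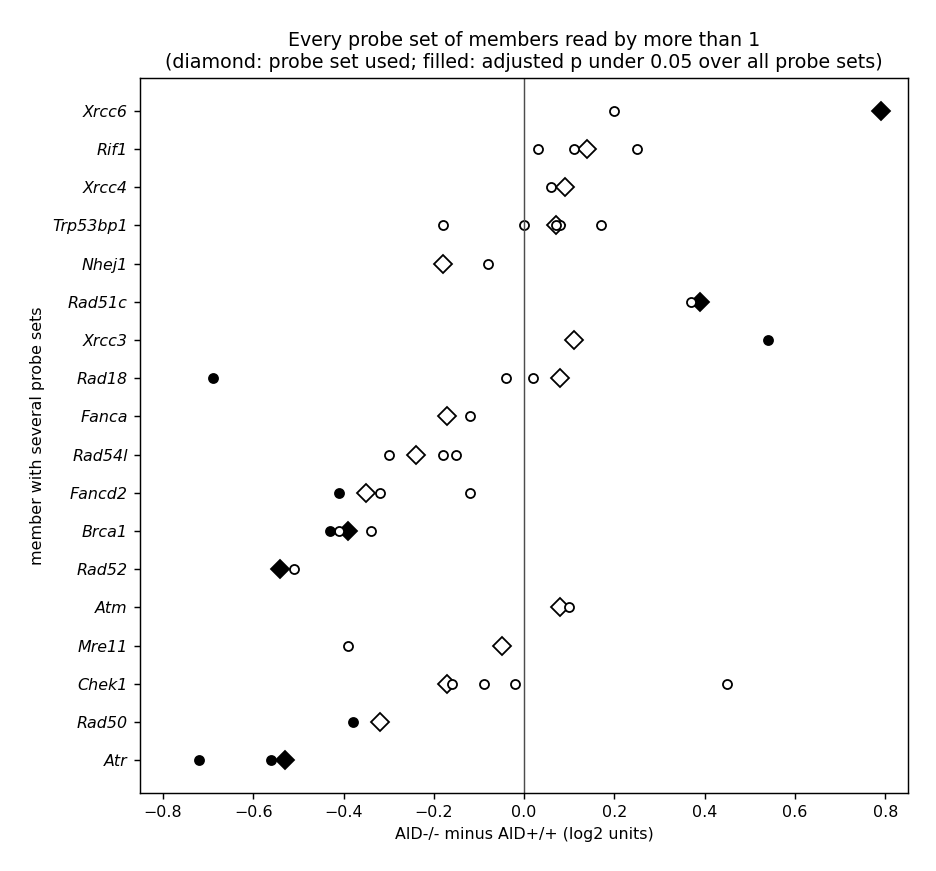
Difference, AID-/- minus AID+/+ in log2 units, of every probe set of the 18 members read by more than 1; diamonds are the probe sets used for the member, circles the others, and filled symbols passed at an adjusted p under 0.05 over all probe sets. The 3 probe sets of Atr are all filled, whereas Chek1, Rad18 and Trp53bp1 have probe sets on both sides of 0.

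Of the 18 members with more than 1 probe set, 15 had all differences on 1 side of 0. The same count was not made over the 9010 genes with more than 1 probe set. Whether 15 of 18 is unusual can therefore not be said. Of the 66 probe sets, 10 were called lower (15.2%, against 7.39% of all 45037 probe sets tested) and 3 higher (4.55%, against 7.24%), with p adjusted over all probe sets. A difference below 0 was found in 42 of them (63.6%, against 58.0% of all probe sets). Probe sets of 1 gene are not independent.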

How the data were processed

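Each array held total RNA of 1 leukaemia sample, 6 micrograms, labelled with biotin. The authors deposited log2 expression values per probe set. Per the submitters' processing notes RMA and Partek were used, with no versions. After 64 array controls were set aside, 45037 probe sets were tested; 34945 had exactly 1 symbol in the platform annotation, and 34741 were matched to RefSeq through their Entrez identifiers. The probe set with the highest 6-array mean stood for its gene, without a filter on dim probe sets. Of the 30 members, 29 would pass one at the median probe set.

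The test was limma 3.58.1 under R 4.3.3 (lmFit, eBayes, group as the only term, two-sided, Benjamini-Hochberg over 18193 genes). On simulated data with 200 of 18193 genes changed, the fit of this comparison recovered 31.3% of changes of 0.5, 86.6% of 1 and 97.0% of 2 log2 units, with 6 false calls. In the measured data 3371 genes were called. The adjustment then sets a different cutoff, so these rates and the false calls need not carry over. The number of arrays limits the precision. Alternatives were 2 further normalizations, a dim filter, other variance models, array weights, averaged probe sets, the replicate block and each array left out. The level of the gene that the genotype labels name is not reported here. Members, lists and tests were chosen with earlier results of these data known. Values on every array are given for members past the threshold and, within each role, for the members with the highest mean and the largest difference; others so given were chosen after their values were seen. Up to 3 genes in each direction are named from the wider lists, and Fance and Ercc1 were added after their values were seen.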

Additional observations from a re-analysis of the deposited data

How the results depend on the processing

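Xrcc6 kept its call in every alternative run except the fit without moderation (adjusted p = 0.0600), and Atr in all but that fit (0.0609), the one without AID+/+ replicate 3 and the threshold of 0.01. The 2 higher members became 1 with the replicate number as a block, 1 at an adjusted p under 0.01 and 0 without moderation, and 1 to 2 with 1 array left out. The 4 lower members became 7 with dim probe sets filtered out, 2 with the replicate block, 0 at an adjusted p under 0.01 and 0 without moderation, and 1 to 3 with 1 array left out. At an unadjusted p under 0.05 the fit without moderation held 2 higher and 8 lower of the 30 members, and the moderated one 3 and 9. Over all genes the moderated fit held 15.3% higher and 15.3% lower at that p. The share of all genes without moderation is not given here. Same-numbered arrays did not deviate together (correlations of -0.06, -0.08 and -0.01), so the numbers were not taken as pairs. Over all genes, 1840 higher and 1531 lower became 912 and 723 without moderation and 988 and 767 at an adjusted p under 0.01. Brca2 and Chek2 passed with quantile normalization (0.0355 and 0.0480) and with the dim filter (0.0378 and 0.0499), Rad50 with that filter (0.0485), and Brca2 with probe sets averaged (0.0410). With 1 array left out the counts over all genes ranged over 1197 to 1848 higher and 945 to 1366 lower, both lowest without AID+/+ replicate 3. The median difference of the members was -0.18 to -0.12 with 1 array left out. Differences near 0 changed sign without any call: Prkdc to -0.01 with quantile normalization and with array weights, and, with probe sets averaged, Rad18 to -0.16 and Chek1 to 0.00. With 1 array left out Prkdc ranged from -0.04 to 0.06, Xrcc3 from -0.04 to 0.27, Rad18 from -0.01 to 0.18, Mre11 from -0.14 to 0.04, Mdc1 from -0.01 to 0.32 and Rnf8 from -0.07 to 0.01. The cause of these changes was not tested.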

Other observations

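Single probe sets of Rad18, Xrcc3, Chek1 and Mre11 departed from the one used for the gene. For Rad18, 1 of 4 probe sets had 6.59, 6.73 and 6.81 in AID-/- leukaemia, against 7.49, 7.49 and 7.22 in AID+/+ leukaemia, a fall of 0.69 (SE 0.11, limma adjusted p = 0.00451 over all probe sets). The remaining 3 probe sets of Rad18 differed by 0.08, 0.02 and -0.04 and did not pass. For Xrcc3, the dimmer probe set was at 6.44, 5.89 and 6.18 in AID-/- leukaemia, against 5.69, 5.57 and 5.65 in AID+/+ leukaemia, higher by 0.54 (SE 0.14, limma adjusted p = 0.0367 over all probe sets). Its identifier carries the suffix x_at, given to probe sets whose probes can match other transcripts. For Chek1, 1 of 5 probe sets read 6.90, 6.55 and 6.59 in AID-/- leukaemia, against 6.16, 6.40 and 6.15 in AID+/+ leukaemia, a difference of 0.45 (SE 0.13) that just missed the threshold (limma adjusted p = 0.0502 over all probe sets), while the other 4 differed by -0.17 to -0.02. For Mre11, the dimmer of 2 probe sets read 5.97, 6.23 and 6.16 in AID-/- leukaemia, against 6.60, 6.62 and 6.31 in AID+/+ leukaemia, a difference of -0.39 (SE 0.12) that did not pass (limma adjusted p = 0.0660 over all probe sets). These 4 were chosen after their values were seen. Which transcripts these probe sets read was not tested.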
